A study of Mus musculus with 32 samples.

Results

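CI-994, a benzamide inhibitor of class I histone deacetylases, was compared with its solvent in the hippocampus of fear-conditioned mice. The comparison takes every gene measured in 8 libraries, 4 of the drug and 4 of the vehicle, out of 32 libraries of hippocampus and striatum. Both groups were male C57BL/6J mice of 12 weeks with no engineered allele in the labels. The drug group received CI-994 at 30 mg/kg by intraperitoneal injection. Its controls received the vehicle, a mixture of DMSO, Kolliphor and saline, by the same route. In both groups the injection came 1 hour before contextual fear conditioning (CFC), in which a mouse placed in a chamber received 2 foot shocks of 0.2 mA. Both groups were therefore handled, injected and shocked, and the tissue was taken 1 hour after the session. Each library holds polyadenylated RNA of 1 hippocampal hemisphere of 1 mouse, and each group thus holds 4 mice. The design covers 1 sex, 1 dose and 1 time, and mice of a cage shared their behaviour. The libraries of mice that saw the chamber without shocks (context), and those of the striatum, appear below only where the hippocampus after conditioning is set beside them.

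Histone acetyltransferases add acetyl groups to lysines of histone tails, which loosens their hold on DNA and gives bromodomain proteins a place to bind. Histone deacetylases remove these groups. HDAC1, HDAC2 and HDAC3 work as the catalytic core of corepressor complexes named after Sin3, CoREST, NuRD and NCoR, and sequence-specific repressors such as the KRAB zinc finger proteins recruit related complexes to DNA. In the hippocampus, acetylation rises with learning, and inhibitors of class I enzymes are studied for their effect on memory. Inhibition is known to lower as well as raise the RNA of many genes.

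The 8 libraries held 29223680 to 36670767 counts each. Drug replicates 2 and 4 stood apart before any test. The summed level of 25 choroid plexus markers was 10430 and 10280 CPM (the count of a gene scaled to the library total) in these libraries. It was 291 and 303 CPM in drug replicates 1 and 3, 239 to 395 CPM in the 4 vehicle libraries, and 239 to 989 CPM over the other 14 hippocampus libraries. The choroid plexus is the epithelium that makes cerebrospinal fluid and lies against the hippocampus. Ttr, its transthyretin gene, read 5433 and 5237 CPM in drug replicates 2 and 4, and 5.05 to 38.3 CPM in the other 6 libraries. The hippocampal label was met in all 8 libraries. Markers of dentate granule cells summed to 767–937 CPM, those of CA1 pyramidal cells to 583–849 CPM, and those of CA3 pyramidal cells to 317–370 CPM, with the ranges of the groups overlapping in each case. Ependymal markers summed to 23.5–40.1 CPM with vehicle and to 38.1, 62.7, 37.9 and 52.4 CPM in drug replicates 1 to 4, and endothelial markers to 226–290 against 272, 348, 286 and 362 CPM. Each result is therefore given with all 8 libraries and again without drug replicates 2 and 4.

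After conditioning more genes were lower than higher with the drug. Of 18261 genes tested, 3797 (20.8%) were called at an adjusted p under 0.05 by edgeR's quasi-likelihood test with Benjamini-Hochberg adjustment. Of these, 1355 (7.42%) rose and 2442 (13.4%) fell, and the median log2 fold change of all tested genes was 0.01. Changes over 2-fold were fewer, with 357 genes (1.95%) higher and 308 (1.69%) lower. The 4 drug libraries lay wholly above the 4 vehicle libraries in TMM-scaled log2 CPM for 1317 genes (7.21%) and wholly below for 2587 (14.2%). Among called genes this held for 948 that rose and 2178 that fell. The share of called genes that fell was 64.3% with TMM scaling, 76.4% with scaling to library size alone, where 4260 genes (23.3%) were called, 1006 (5.51%) higher and 3254 (17.8%) lower. With offsets for GC content and transcript length it was 54.1% of 5534 calls (30.3%), of which 2538 (13.9%) were higher and 2996 (16.4%) lower. In bulk tissue, fewer cells of a type and less RNA per cell cannot be told apart, so each change below is a change in the share of RNA in the dissected piece.

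Without drug replicates 2 and 4, 2358 of 18712 genes (12.6%) were called, 725 (3.87%) higher and 1633 (8.73%) lower. The 2 directions depended on these libraries to different degrees. Of the 1355 genes that rose with all libraries, 620 (45.8%) were called again, and 60 had the opposite sign. Of the 2442 that fell, 1556 (63.7%) were called again, and 0 had the opposite sign. The loss was steepest among large increases. Of 84 genes that rose over 4-fold, 13 (15.5%) were called without the libraries, against 114 of 273 (41.8%) that rose 2- to 4-fold. Among genes that fell 2- to 4-fold, 262 of 298 (87.9%) were called again. Over all tested genes, called or not, drug replicates 2 and 4 both exceeded replicates 1 and 3 in 4393 (24.1%). The median standard error over all genes was 0.135 with 4 drug libraries and 0.167 with 2, so part of the loss comes with fewer samples by construction.

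Replicates 1 and 2 also differed from replicates 3 and 4 in the context groups of hippocampus, a split that the labels do not name. It was not plain after conditioning. There, deviations from the group mean correlated at −0.498 between drug replicates 1 and 2 and at −0.648 between 3 and 4. In the vehicle group the values were −0.211 and −0.0275. Each set of replicates, 1 and 2 or 3 and 4, holds 1 of the choroid-rich libraries. Within replicates 1 and 2, 1642 genes (9%) were called, 486 (2.66%) higher and 1156 (6.33%) lower. Within replicates 3 and 4, 1555 genes (8.44%) were called, 415 (2.25%) higher and 1140 (6.19%) lower. Of the 2442 genes that fell in the pooled comparison, 2434 had the same sign in both sets and 799 were called in both. Of the 1355 that rose, 1346 had the same sign in both sets and 223 were called in both. Both sets are parts of the pooled comparison that selected these genes, so the agreement in sign was largely fixed in advance.

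**Figure D1:**
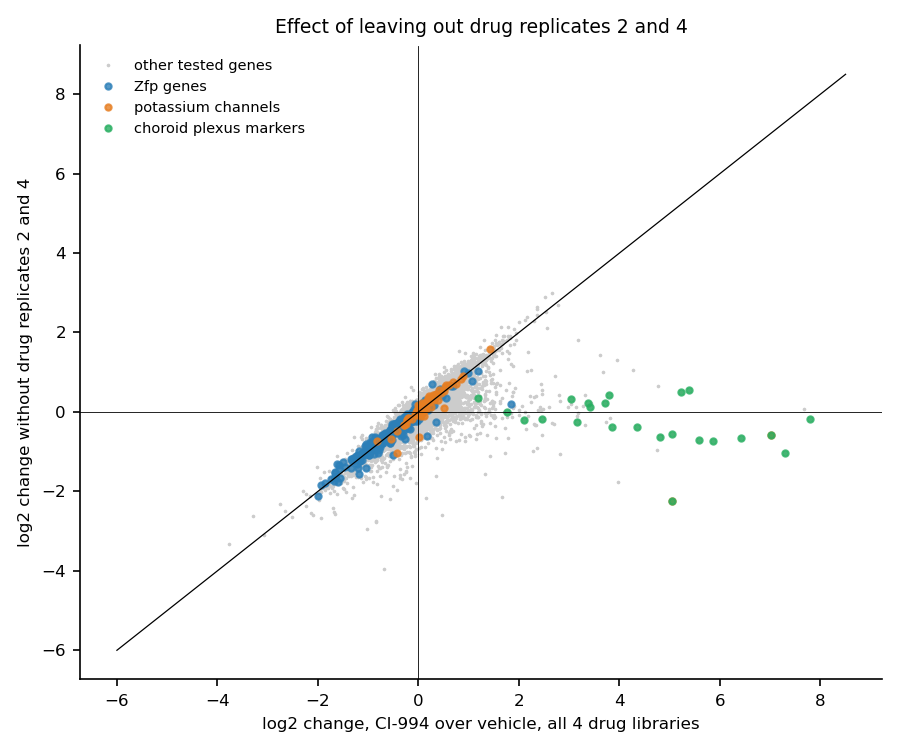
Log2 fold change of CI-994 over vehicle after conditioning in hippocampus with all 8 libraries (x axis) and without drug replicates 2 and 4 (y axis), with each point a tested gene and the line of equal change. Choroid plexus markers (green) lie far to the right with a median of −0.20 on the y axis, while Zfp genes (blue) lie along the line.

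The 15 most fallen genes named here were taken from genes with a mean log2 CPM of at least 1, a call with and without drug replicates 2 and 4, and no overlap between the groups. They fell 3.05- to 4.74-fold with all libraries and 3.09- to 5.12-fold without the 2. Nfatc2ip, an NFAT-interacting protein gene on mm10 chromosome 7 (126382854 to 126396737), read 8.08, 6.81, 9.77 and 7.85 CPM with vehicle and 1.56, 1.92, 1.43 and 1.64 CPM with the drug. The groups lay far apart, and the log2 fold change was −2.25 (SE 0.152, adjusted p = 1.03e-07, edgeR quasi-likelihood test, n = 4 per group). Ing5, which encodes a reader subunit of acetyltransferase complexes, read 16.8, 19.2, 19.3 and 19.8 CPM with vehicle and 5.33, 5.06, 4.03 and 5.24 CPM with the drug. The 4 drug values lay close together and far under the vehicle values (log2 fold change −1.87, SE 0.103). Sirt1, a NAD-dependent deacetylase that class I inhibitors do not target, had 20.4 to 24.7 CPM with vehicle and 4.92 to 5.97 CPM with the drug.

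Ezh2, the methyltransferase of Polycomb repressive complex 2, read 9.3, 7.19, 8.59 and 8.24 CPM with vehicle and 2.08, 2.57, 2.76 and 2.92 CPM with the drug. It fell 3.09-fold (log2 fold change −1.63, SE 0.129). Lmnb1, which encodes the nuclear lamina protein lamin B1, fell 3.36-fold with all libraries and 4.11-fold without drug replicates 2 and 4. Its drug values were 1.71 and 1.75 CPM in replicates 1 and 3 and 2.67 and 2.44 CPM in replicates 2 and 4. Ccnf, a cyclin and F-box gene, fell 3.65-fold, Atad5, which unloads the replication clamp from DNA, 3.12-fold, and Mad2l1bp, a regulator of the spindle checkpoint, 3.48-fold. Malt1, a paracaspase that links receptors to NF-kappaB, went from 12.9 ± 1.78 to 3.39 ± 0.354 CPM (SD, n = 4). Ciart, a transcriptional repressor of the circadian clock, went from 4.66–7.36 to 1.16–1.74 CPM. The 5 others were the zinc finger genes Zfp472, Zfp960, Zfp111, Zfp791 and Zfp300. In striatum after conditioning 14 of these 15 genes also fell. The exception was Lmnb1, with a log2 fold change of −0.75 there (adjusted p = 0.101).

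The 15 most risen genes under the same conditions rose 2.06- to 3.06-fold with all libraries and 2.08- to 3.02-fold without the 2. Kcnj2, the inward rectifier potassium channel Kir2.1, read 18.8, 12.7, 18.3 and 12.9 CPM with vehicle and 45.3, 36.5, 44.2 and 34.9 CPM with the drug. The lowest drug value lay well above the highest vehicle value (log2 fold change 1.43, SE 0.161, adjusted p = 1.11e-05). Ptgs2, the activity-induced prostaglandin synthase, read 51.2, 34.6, 48.2 and 34.2 CPM with vehicle and 98.1 to 105 CPM with the drug. The vehicle mice varied more than the drug mice, and the groups did not meet, which the choice of genes required. Irf2bpl, an interferon regulatory factor 2 binding protein gene, had the smallest error of the 15. It read 27.1, 25.7, 25.4 and 24.1 CPM with vehicle and 52, 49.9, 49.1 and 54.6 CPM with the drug (log2 fold change 1.07, SE 0.0616, adjusted p = 2.08e-08).

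Sox9 and Sox10, transcription factors of astrocytes and of the oligodendrocyte lineage, rose 2.2-fold and 2.29-fold. Sox10 read 16.2, 13, 10.7 and 9.71 CPM with vehicle and 34.2, 28.4, 21.7 and 24.6 CPM with the drug. Irf8, a transcription factor of microglia and other myeloid cells, rose 2.45-fold at a low level, from 2.21 ± 0.500 to 5.19 ± 0.714 CPM. Mylip, a ubiquitin ligase, went from 15.5 ± 1.58 to 31.2 ± 2.57 CPM, and Chst3, a sulfotransferase of chondroitin chains, from 3.47 ± 0.478 to 7.30 ± 0.707 CPM. Neat1, the long non-coding RNA that scaffolds paraspeckles, was the named riser in which the choroid-rich libraries weighed most. It read 56, 54.4, 60.8 and 52.4 CPM with vehicle, 112 and 108 CPM in drug replicates 1 and 3, and 213 and 225 CPM in drug replicates 2 and 4. Its log2 fold change of 1.62 became 1.06 without replicates 2 and 4 (adjusted p = 2.77e-05). Cdc42ep1, Rbm20, Impg2, Dbpht2, Chrna1 and Lpin3 complete the set. Of the 14 that could be tested in striatum after conditioning, 12 rose there too. The exceptions were Mylip (log2 fold change 0.16, adjusted p = 0.32) and Ptgs2 (1.00, adjusted p = 0.196).

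**Figure D2:**
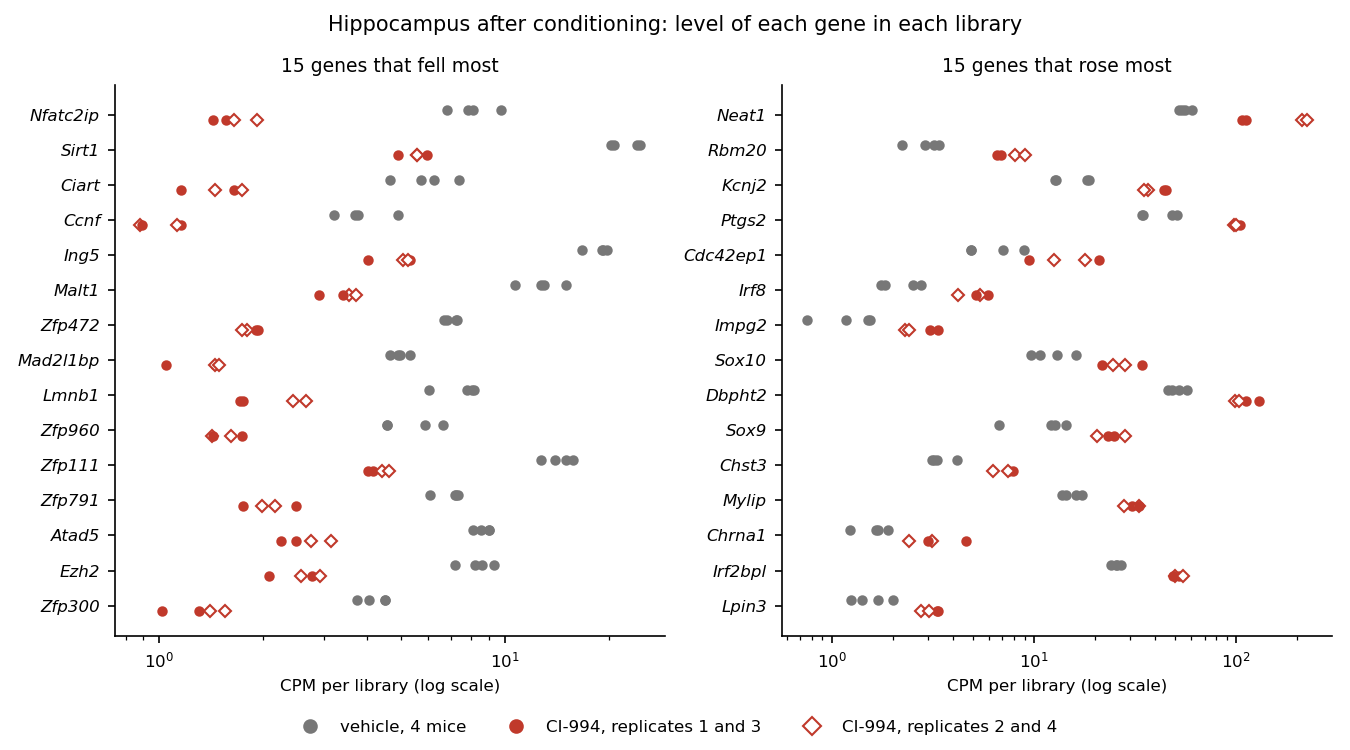
CPM in each of the 8 libraries (log axis) for the 15 genes that fell (left) and the 15 that rose (right) furthest with and without drug replicates 2 and 4, with vehicle in grey, drug replicates 1 and 3 as filled circles and 2 and 4 as open diamonds. Grey and red points do not meet in any row because the genes were chosen for this. The gap between diamonds and filled circles is widest for Neat1, at 213 and 225 against 112 and 108 CPM.

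Promoter letters differed between the genes that fell and the genes that rose. The stretches below are the 150 bases before the RefSeq start site (GRCm38.p6), 5′ to 3′ on the gene's strand. They belong to 3 fallen genes from lists described below, Ing5, Taf5l and Msh6, and to 2 risen genes, Kcnj2 and Ptgs2. These genes are examples and did not have the largest changes in either direction. Capitals mark the ETS core letters CCGGAA or their reverse complement. ETS factors are a family of activators that often bind close to the start of broadly used genes. Msh6 encodes a mismatch repair protein, and Taf5l a subunit of the SAGA coactivator related to TFIID.
Ing5, chr1:93803815-93803964, plus strand: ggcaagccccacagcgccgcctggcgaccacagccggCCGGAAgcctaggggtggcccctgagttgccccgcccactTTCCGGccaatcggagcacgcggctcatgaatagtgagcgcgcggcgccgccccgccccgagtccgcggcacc
Taf5l, chr8:124021398-124021547, minus strand: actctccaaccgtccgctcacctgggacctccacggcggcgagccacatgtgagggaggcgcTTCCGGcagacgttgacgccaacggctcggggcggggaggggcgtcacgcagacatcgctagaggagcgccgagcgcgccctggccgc
Msh6, chr17:87974900-87975049, plus strand: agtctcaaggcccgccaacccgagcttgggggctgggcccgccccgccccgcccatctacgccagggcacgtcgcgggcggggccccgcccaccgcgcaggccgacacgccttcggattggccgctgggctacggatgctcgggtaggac
Kcnj2, chr11:111066014-111066163, plus strand: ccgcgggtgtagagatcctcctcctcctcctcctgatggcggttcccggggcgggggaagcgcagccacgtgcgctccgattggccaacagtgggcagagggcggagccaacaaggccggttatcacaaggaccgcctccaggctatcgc
Ptgs2, chr1:150099881-150100030, plus strand: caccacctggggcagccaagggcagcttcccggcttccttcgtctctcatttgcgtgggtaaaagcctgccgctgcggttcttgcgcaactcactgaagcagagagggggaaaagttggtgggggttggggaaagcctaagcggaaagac
Ing5 holds these letters at both −113 and −73 and Taf5l at −88 from the start site. They are not in the printed bases of Msh6, Kcnj2 or Ptgs2.

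Over the whole comparison, 12411 of the tested genes (68%) had a RefSeq promoter window running from 250 bases before to 50 bases after the start. CCGGAA on either strand was in 38.3% of the 1883 windows of genes that fell, 13.5% of the 940 of genes that rose, and 23.8% of the 9588 of genes not called. It was in 14.9% of all promoter windows in the table. The order was alike for genes called with and without drug replicates 2 and 4, at 39.5% of those that fell and 13.2% of those that rose. It was also alike with Zfp genes left out, at 38.1% of those that fell. Expression level is one thing these classes do not share, since 24.9% of genes in the middle of 5 equal expression classes fell, against 4.9% in the lowest and 3.18% in the highest class. Within each of the 5 expression classes the share was higher in genes that fell than in genes not called, from 34.8% against 15.0% in the lowest to 41.1% against 25.3% in the highest. Among windows with CpG counts at or over the median the share was 40.8% against 30.9%, and among the others 35.1% against 16.7%. TATAAA on either strand, the TATA box letters, ran the other way, in 10.6% of genes that rose, 5.47% of genes that fell and 7.66% of genes not called. The AP-1 letters TGANTCA, on either strand, were in 6.38%, 3.19% and 4.93% of these classes. A match is only a match of letters, and no binding was measured here.

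**Figure D3:**
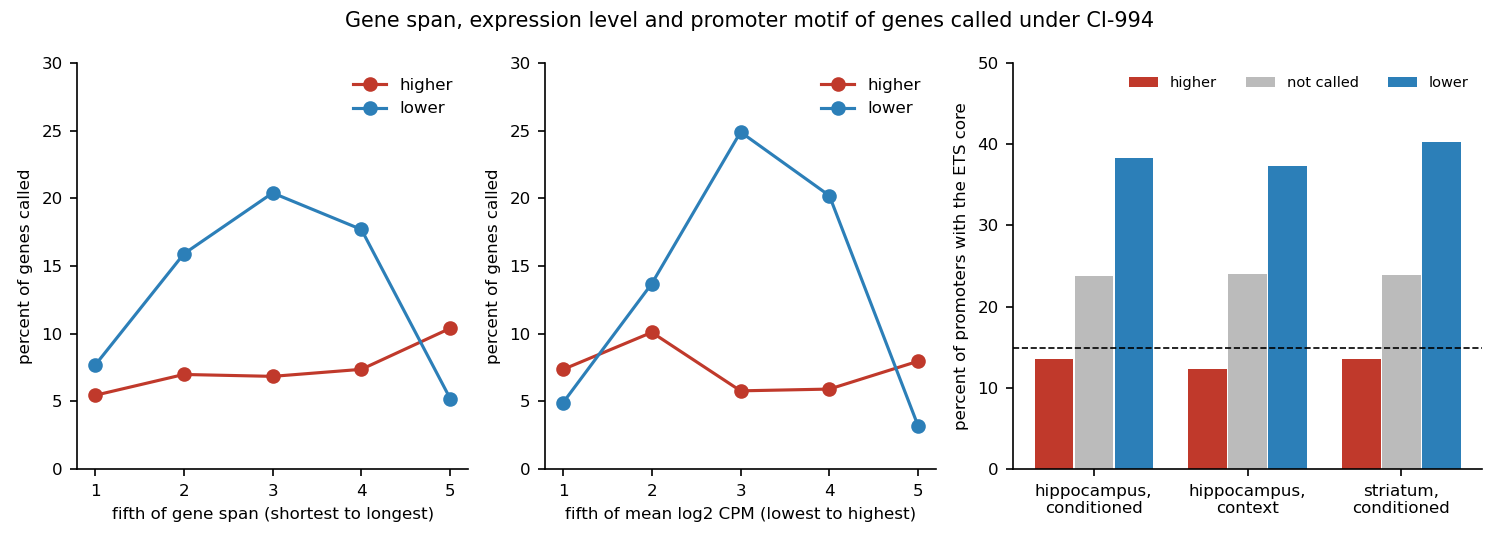
Percent of genes called higher or lower after conditioning in 5 equal classes of gene span (left) and of mean log2 CPM (middle), and percent of promoter windows with the ETS core among genes higher, not called and lower in 3 comparisons (right), with a dashed line at the 14.9% of all promoters. The lower share peaks in the middle classes, at 20.4% and 24.9%, and the bars of the lower genes are the tallest in each comparison.

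Gene structure went with direction as well. Genes were split into 5 equal classes of genomic span. In the longest class, 66227 bases and over, 10.4% rose and 5.21% fell, and in the middle class 6.85% rose and 20.4% fell. Of the 5 classes of promoter CpG count, the lowest had 12.9% of genes higher and 6.48% lower, and the middle 6.24% and 21.3%. Long intergenic non-coding RNAs leaned upwards, with 12.8% of 704 higher and 5.54% lower. The order of these shares was alike without drug replicates 2 and 4, with 5.37% higher and 3.45% lower in the longest class of span and 3.34% and 14.3% in the middle class.

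The genes of the drug's own targets moved little. Hdac1 read 35.3, 34.9, 36.4 and 34.9 CPM with vehicle and 38.6, 35.5, 39.5 and 36.9 CPM with the drug. Hdac2 read 87.8, 84.7, 96.8 and 87.8 CPM against 70.9, 70, 75.8 and 65.8 CPM. The Hdac2 values did not overlap, but the call (log2 fold change −0.27, adjusted p = 0.0473) was lost in 8 of the 16 fits that left out 1 library and without drug replicates 2 and 4 (adjusted p = 0.263). Hdac1 went the other way (log2 fold change 0.15, adjusted p = 0.0622) and passed without these libraries (0.22, adjusted p = 0.0354). Hdac3 and Hdac8 differed by 0.04 and 0.11 on the log2 scale, each less than 2 SE. Of the 7 sirtuin genes, which belong to another class of deacetylases, Sirt1 and Sirt7 fell, beside 13.4% of all genes lower. The Sirt7 call rested in part on vehicle replicate 2, without which its adjusted p was 0.0562.

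Among corepressor complexes that carry HDAC1, HDAC2 or HDAC3, 6 of 17 Sin3 complex genes fell and 0 rose. Of all genes, 13.4% were lower and 7.42% higher. The Sin3 median log2 fold change was −0.17, and the counts were 6 and 0 again without drug replicates 2 and 4. Sin3a, the scaffold of the complex, fell from 42.7 ± 3.30 CPM with values of 37.9 to 45.3 to drug values of 19.3 to 22.2 CPM. Ing1 and Ing2, which read the methylated histone H3 tail for this complex, read 19.4–22.5 and 17.3–20.6 CPM with vehicle and 11.4–13.3 and 10.1–12.2 CPM with the drug. Of 10 CoREST genes 2 rose and 2 fell, and the paralogs parted: Rcor3 fell from 31.2 ± 1.72 to 18.2 ± 1.01 CPM, and Rcor1 by 0.37 on the log2 scale, while Rcor2 was higher by 0.52. The Rcor1 and Rcor2 calls were lost without drug replicates 2 and 4 (adjusted p = 0.123 and 0.184). In NuRD, Mta2 fell 1.28-fold and the remodeller Chd4 was higher by 0.32 on the log2 scale. Of 5 NCoR genes 2 rose and 1 fell, with the WD-repeat subunit Tbl1x 1.39-fold higher.

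Of 27 subunits of acetyltransferase complexes other than the enzymes, 17 fell and 0 rose, beside 13.4% of all genes lower, at a median log2 fold change of −0.35. The count was 11 and 0 without drug replicates 2 and 4. Besides Ing5, Epc1 of the NuA4 complex read 41.9–44.9 CPM with vehicle and 24.8–26.7 CPM with the drug. Ing3, of the same complex, went from 22.0 ± 1.02 to 12.3 ± 1.37 CPM, and Jade3, of the HBO1 complexes, from 13.9–17.6 to 7.53–9.72 CPM. Of the 13 acetyltransferases themselves, 5 fell and 0 rose, a count that dropped to 2 without drug replicate 4 and to 3 without drug replicates 2 and 4. Ep300 read 99.8, 80.4, 95.2 and 84.9 CPM with vehicle and 58.6, 59.6, 55 and 54 CPM with the drug. Its paralog Crebbp fell by 0.34 on the log2 scale, a call lost without drug replicate 4 (adjusted p = 0.0528). Kat6b also fell, and is named after its values were seen. Of 28 readers of acetyl-lysine, 10 fell and 3 rose, beside 7.42% of all genes higher. Brd8, Yeats4 and Trim24 fell 1.42- to 1.53-fold, and Baz2a rose 1.27-fold. The higher count of 3 became 1 without vehicle replicate 4.

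Of 29 methyltransferase and Polycomb genes 9 fell and 2 rose, beside 13.4% of all genes lower and 7.42% higher. Without drug replicates 2 and 4 the counts were 7 and 2. Kmt5b, which methylates lysine 20 of histone H4, read 78.4, 67.5, 80.3 and 74.9 CPM with vehicle and 27.5, 30.7, 24.8 and 30.4 CPM with the drug. It was the most abundant gene of the list to fall over 2-fold (log2 fold change −1.35, SE 0.075, adjusted p = 1.6e-08). Eed, the core partner of Ezh2, fell 1.86-fold, and Suv39h2, a methyltransferase of heterochromatin, 2.64-fold. The 2 that rose were Setd5 and Kmt2e, named after their values were seen. Of 20 histone demethylases 9 fell and 2 rose, at a median of −0.25, among them Kdm1b from 12.9 ± 1.30 to 7.40 ± 0.825 CPM and Kdm2a from 110 ± 11.8 to 69.8 ± 4.33 CPM. Of 31 chromatin remodellers 8 (25.8%) fell and 2 rose. In the middle of the 5 expression classes 24.9% of genes fell, and no list was matched for expression. Actl6a, an actin-related subunit shared by BAF, INO80 and NuA4 complexes, fell 2.04-fold, Ino80 1.47-fold and Chd1 1.75-fold. Histone genes themselves were seldom called: H2afx and H2afy2 were the 2 of 33 that fell, and neither passed without drug replicates 2 and 4.

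Of 47 general transcription factor genes 22 fell and 0 rose, beside 13.4% of all genes lower, with a median log2 fold change of −0.28, and 13 fell without drug replicates 2 and 4. Taf5l, whose promoter is printed above, read 17.7, 19.1, 14.9 and 17.5 CPM with vehicle and 8.89, 9.96, 8.79 and 9.81 CPM with the drug. Taf5, its TFIID counterpart, fell 2.76-fold from 8.09 ± 0.837 CPM, Taf7 1.63-fold, and Gtf2a1, the large subunit of TFIIA, 1.41-fold. The ETS letters were in 21 of the 40 general transcription factor promoters that could be read (52.5%), and in 8.77% of potassium channel promoters. Of 33 Mediator subunits, which join activators to RNA polymerase II, 9 (27.3%) fell and 0 rose. The lower share was near the 24.9% of genes in the middle expression class. Med11 fell 2.32-fold, Med17 1.59-fold and Med23 1.41-fold. The Med17 values were 25.3–27.1 CPM with vehicle and 15.6–16.1 CPM with the drug. Of 29 elongation factors 11 fell and 1 rose. Larp7 and Mepce, which stabilise the 7SK RNA that holds the elongation kinase P-TEFb inactive, fell 1.42-fold and 1.71-fold. Nelfa, of the negative elongation factor, fell 1.67-fold. Of 48 splicing factors and Clk kinases 7 fell and 1 rose, a lower share near the 13.4% of all genes. For the Sin3, acetyltransferase, acetyltransferase complex, general factor and Mediator lists, 0 members rose at an unadjusted p under 0.05 and 0 by DESeq2. With offsets for GC content and length, edgeR called 2 Sin3 genes, 2 general factors and 1 Mediator gene higher.

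Of 48 DNA repair genes 26 fell and 1, Parp1, rose, beside 13.4% of all genes lower and 7.42% higher. The median log2 fold change was −0.45. Without drug replicates 2 and 4 the count was 23 and 0, and without any single library it was 23 to 26 lower. Msh6 read 25.1, 23.1, 27.7 and 24.4 CPM with vehicle and 10.8, 12.1, 11.7 and 12.1 CPM with the drug (log2 fold change −1.04, SE 0.0873, adjusted p = 8.19e-07). Ercc6, of transcription-coupled repair, went from 54.9 ± 4.54 to 34.2 ± 1.05 CPM. Xpc, which recognises bulky lesions, fell 1.66-fold, and Parp2, a poly-ADP-ribose polymerase, 1.55-fold. Parp1, named after its values were seen, was higher by 0.44 on the log2 scale (adjusted p = 0.00345), and did not pass without drug replicates 2 and 4 (adjusted p = 0.0569). Among 26 genes of the p53 pathway the stress sensors parted, with Sesn2 1.92-fold lower and Sesn1 1.4-fold higher. Ppm1d, the phosphatase that shuts off p53, fell 1.48-fold.

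Zinc finger genes with the Zfp symbol made up 9.09% of all genes that fell, though they are 2.02% of genes tested. Of 368 tested, 222 (60.3%) fell and 10 rose, against 12.4% lower among all other genes. The median was −0.44, and 320 of the 368 were below 0. The drug and vehicle libraries did not overlap in 206 that were lower and 12 that were higher, beside 14.2% and 7.21% of all genes. Without drug replicates 2 and 4, 167 fell and 6 rose. Among genes that fell over 2-fold, 16.9% were Zfp genes. Zfp111 read 15.1, 12.7, 15.8 and 14 CPM with vehicle and 4.17, 4.42, 4.03 and 4.63 CPM with the drug. Zfp954 fell 2.99-fold and Zfp39 2.28-fold. Zfp608 did the opposite and rose 1.98-fold, from 40.6–46.8 CPM to 78.1–85 CPM. Many Zfp genes lie in clusters of close relatives. On chromosome 7, 58 of 90 fell, on chromosome 17, 34 of 45, and on chromosome 13, 26 of 35. Some chromosomes with fewer Zfp genes had like shares, with 13 of 18 on chromosome 9 and 12 of 17 on chromosome 11. Whether clustered genes fell more often was not tested. On chromosome 2, 10 of 26 fell, on chromosome 4, 4 of 17, and on chromosome 18, 1 of 11. Reads shared by near-identical members could have been split between them, so single Zfp values are uncertain.

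**Figure D4:**
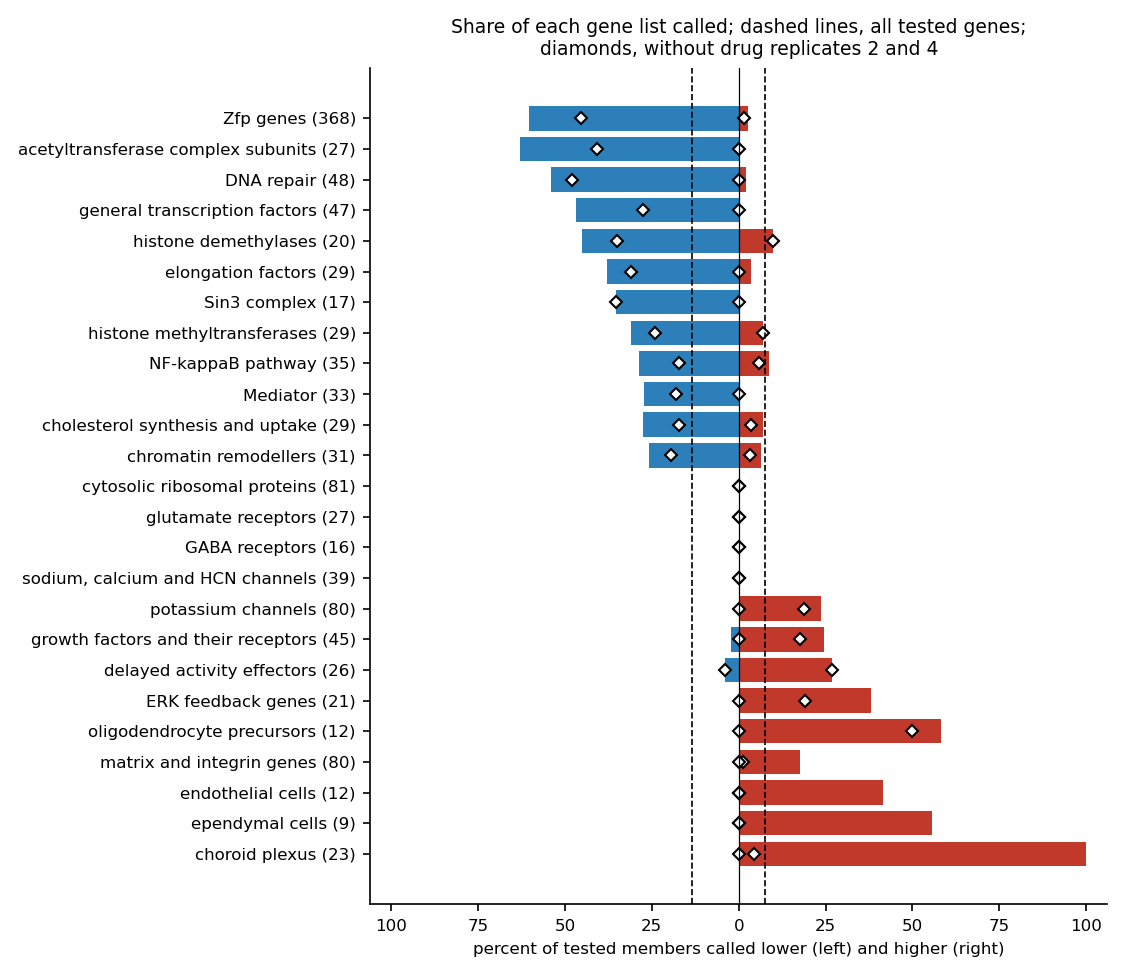
Percent of tested members (number in brackets) called lower (left bars) and higher (right bars) after conditioning for selected lists, with diamonds for the shares without drug replicates 2 and 4 and dashed lines at the 13.4% lower and 7.42% higher of all genes. The Zfp and DNA repair lists pass the dashed line on the left in both fits, while the matrix, endothelial, ependymal and choroid plexus bars on the right shrink to diamonds at or near 0.

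Of 35 NF-kappaB pathway genes 10 (28.6%) fell and 3 rose, beside 24.9% of genes lower in the middle expression class. The median was −0.26, and the counts were 6 and 2 without drug replicates 2 and 4. Malt1 and Bcl10, partners in the complex that relays antigen receptor and G protein signals, fell 3.64-fold and 2.03-fold. Bcl10 read 9.44–10.2 CPM with vehicle and 4–4.86 CPM with the drug. Ripk1, a kinase of the tumour necrosis factor receptor, fell 2.24-fold, and Rel, a subunit of NF-kappaB itself, 2.18-fold. The 3 that rose were Traf3, Bcl3 and Nfkbiz, named after their values were seen. Of 28 interferon genes 3 rose and 4 fell, shares near the 7.42% and 13.4% of all genes. The receptor gene Ifnar1 and its signal transducer Stat2 fell 1.37-fold and 1.51-fold, while the antiviral gene Rsad2 rose 2.39-fold from 1.10 ± 0.211 CPM.

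Of 80 potassium channel and subunit genes 19 rose and 0 fell, beside 7.42% of all genes higher, with a median of 0.11. Without drug replicates 2 and 4, 15 rose and 0 fell, and leaving out single libraries gave 14 to 21. Kcne2 and Kcnj13, 2 of the 19, are also among the choroid plexus markers. At an unadjusted p under 0.05, 28 were higher and 2 lower, and DESeq2 called 23 and 0. Scaling to library size alone gave 14 higher and 1 lower, and GC content and length offsets 25 and 2. Besides Kcnj2, the tandem-pore channel Kcnk1 read 74.1, 71.8, 61.9 and 63.8 CPM with vehicle and 113, 113, 94.5 and 118 CPM with the drug (log2 fold change 0.76, SE 0.0889). Kcng1 and Kcnf1, silent subunits that modify Kv2 channels, rose 1.8-fold and 1.61-fold. Kcnf1 values were 42.1–63.9 CPM with vehicle and 78–92.4 CPM with the drug.

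Receptors and other channels were called seldom or never. Beside 20.8% of all genes, edgeR called 0 of 39 sodium, calcium and HCN channels, 0 of 27 glutamate receptors and 0 of 16 GABA receptors. At an unadjusted p under 0.05 there were 2, 0 and 0, and DESeq2 called 2, 0 and 1. With offsets for GC content and length, edgeR called 3, 4 and 3 of them higher. The glutamate receptors ranged from −0.04 to 0.31 on the log2 scale, with a median of 0.07. Of 36 postsynaptic scaffold genes, Lrrtm2 (1.3-fold) and Iqsec1 (1.24-fold) rose. The Iqsec1 call was lost without drug replicates 2 and 4 (adjusted p = 0.264). Of 45 genes of transmitter release, Vamp1, a synaptic vesicle fusion protein, rose 1.21-fold. Pcdh8, an activity-regulated protocadherin, rose 1.81-fold, from 36.5 ± 5.12 to 63.0 ± 5.09 CPM. Of 81 cytosolic ribosomal protein genes 0 were called, with 2 higher at an unadjusted p under 0.05, 0 by DESeq2 and 5 with the GC content and length offsets. Whether potassium channels differ from these lists was not tested.

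Of 38 rapid immediate early genes 5 rose and 1 fell, beside 7.42% of all genes higher, and 5 and 0 without drug replicates 2 and 4. The higher count was 9 without replicate 1 of the context vehicle group, which shares the fit. Fosl2, a Fos-family partner of Jun, read 53.8, 53.3, 61.1 and 51 CPM with vehicle and 88.6, 74.4, 89 and 83.3 CPM with the drug. Jun itself read 42.4–52.3 and 76.8–87.6 CPM, Btg2, an antiproliferative gene, 13.6–20.2 and 27.6–31.9 CPM, and Ier5 21–27.9 and 29.7–32.9 CPM. Nr4a3 was the other that rose and Srf the one that fell, both named after their values were seen. For the genes most used as activity marks the vehicle mice spread widely. Arc read 163, 99.6, 92.2 and 51.1 CPM with vehicle and 165, 171, 121 and 119 CPM with the drug, and Fos 17.9, 12.3, 11.8 and 7.61 against 11.9, 11.9, 12.4 and 11.5 CPM. The vehicle range of Fos enclosed all 4 drug values. The log2 differences were 0.57 (SE 0.348) for Arc, 0.01 (SE 0.238) for Fos, 0.31 (SE 0.273) for Npas4 and 0.21 (SE 0.171) for Egr1, and none was called.

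Of 26 slower, effector-type activity genes 7 rose and 1 fell, both with and without drug replicates 2 and 4. Of all genes, 7.42% rose with all libraries and 3.87% without these. Rgs4, which speeds the shut-off of G protein signals, rose from 153 ± 16.2 to 240 ± 27.7 CPM, and Plk2, a kinase of synaptic scaling, from 222–239 to 293–341 CPM. Baz1a, also a bromodomain gene, fell 2.67-fold. Bdnf read 68, 45.4, 51.9 and 47 CPM with vehicle and 75.7, 64.5, 77.8 and 63.9 CPM with the drug, so the ranges overlapped through vehicle replicate 1. Its call (log2 fold change 0.47, adjusted p = 0.0217) was lost without vehicle replicate 2 or 4 or drug replicate 1 or 3 (adjusted p from 0.0581 to 0.072). Without drug replicates 2 and 4 it held (0.61, adjusted p = 0.0234). Of 21 feedback genes of the ERK pathway 8 rose and 0 fell, but 4 rose without drug replicates 2 and 4 and 5 without vehicle replicate 4. Dusp6, the phosphatase that switches off ERK, read 64.9, 42.8, 53.8 and 38.5 CPM with vehicle and 83.9, 93.3, 90.7 and 77.1 CPM with the drug. Rasl11b, a small GTPase gene, had a tighter spread, 41.6–50.1 against 76.4–81.2 CPM (log2 fold change 0.79, SE 0.0661, adjusted p = 7.99e-07). At an unadjusted p under 0.05, 10 ERK feedback genes were higher and 2 lower.

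Core clock genes moved in both directions within each arm of the loop, with 4 of 24 higher and 4 lower. Of all genes, 7.42% were higher and 13.4% lower. The activator Arntl (Bmal1) rose 1.7-fold, from 30.1–40.7 to 53.3–64.7 CPM, while its paralog Arntl2 fell 1.67-fold. The repressor Cry2 rose 1.56-fold, from 105–127 to 164–186 CPM, and Cry1, named after its values were seen, fell by 0.66 on the log2 scale. Cholesterol genes moved in both directions. Abca1, which exports cholesterol, rose from 63.9–78.5 to 100–127 CPM. Within the list of 29 cholesterol genes, 8 fell and 2 rose, or 5 and 1 without drug replicates 2 and 4, and 5 fell without vehicle replicate 1. Insig1 (1.61-fold) and Hsd17b7 (1.4-fold) were among those that fell. In receptor and morphogen pathways, Maml1, the coactivator of Notch, fell 2.27-fold, and Axin1 and Fzd8, a brake and a receptor of Wnt signalling, 1.84-fold and 1.99-fold. Acvr1, a BMP receptor, rose 1.51-fold.

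Growth factors and their receptors rose in 11 of 45 cases and fell in 1, beside 7.42% of all genes higher and 13.4% lower. Without drug replicates 2 and 4 the counts were 8 and 0, beside 3.87% of all genes higher. Fgfr2, a fibroblast growth factor receptor, read 28.9–37.9 CPM with vehicle and 44.8–54.5 CPM with the drug. Ntf3, the neurotrophin of TrkC, rose 1.63-fold and Pdgfrb, the receptor of pericytes, 1.72-fold.

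Of 12 oligodendrocyte precursor markers 7 rose and 0 fell, beside 7.42% of all genes higher, with a median of 0.56, and 6 without drug replicates 2 and 4. Their summed level was 280–298 CPM with vehicle and 383–416 CPM with the drug. Gpr17, a receptor of committed precursors, read 80.1, 68, 72.2 and 71.2 CPM with vehicle and 96, 96.9, 110 and 116 CPM with the drug. Pdgfra, their growth factor receptor, rose from 53.9–78.3 to 86.7–99.6 CPM, and Neu4, a sialidase, from 11.7–13.4 to 16.9–17.6 CPM. Mature oligodendrocytes, astrocytes and microglia had 2 of 14, 3 of 14 and 1 of 14 markers called, and the summed levels overlapped between groups at 3740–4390 against 3930–5180 CPM, 6280–6830 against 6130–7190 CPM, and 427–488 against 440–491 CPM. Whether the precursor markers differ from the other glial lists was not tested.

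Markers of the choroid plexus were among the largest increases, and they followed drug replicates 2 and 4. The part of these libraries in other results was not tested beyond leaving them out. All 23 choroid plexus markers tested rose, beside 7.42% of all genes, with a median log2 fold change of 4.36. Without drug replicates 2 and 4 the median was −0.20 and 1, Car12, rose. Folr1, a folate receptor, read 0.273 to 1.03 CPM with vehicle, 0.753 and 0.984 CPM in drug replicates 1 and 3, and 48.9 and 50.7 CPM in replicates 2 and 4. Its log2 fold change went from 5.38 to 0.56 (adjusted p = 0.689). Ttr, Igf2 and Sema3b changed sign, to −1.04, −0.44 and −0.33. Car12, a carbonic anhydrase, remained higher by 0.35 (adjusted p = 0.0251). Matrix and integrin genes rose in 14 of 80 cases with all libraries and in 1 without these. The 1 was Itgb1bp2, an integrin-binding gene of muscle, and the count was 8 without vehicle replicate 1. Col9a3, a collagen gene, read 50.3 and 46.6 CPM in drug replicates 2 and 4 and 4.02 to 6.63 CPM in the 6 others. Of 9 ependymal and 12 endothelial markers, 5 and 5 rose with all libraries and 0 and 0 without the 2. Their median log2 fold changes stayed above 0, going from 0.85 to 0.54 and from 0.40 to 0.26. That fit has fewer samples. In striatum after conditioning all 9 ependymal markers rose. The ependymal count was 1 without drug replicate 2 alone, and the endothelial count 3 without drug replicate 4 alone. Other genes followed these libraries too. Ppp1r1b, a marker of medium spiny neurons, read 60.6 and 66.3 CPM in replicates 2 and 4 and 24.6 to 30.4 CPM in the other 6. Lamp2, a lysosomal membrane gene, read 125 and 130 against 77.5 to 91.3 CPM.

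The drug's change after conditioning was set beside its change after the chamber alone, which was measured in other mice with their own vehicle controls. After context 3612 genes (19.8%) were called, 1196 (6.55%) higher and 2416 (13.2%) lower. With the replicate number as a block 5304 (29%) were called, 2000 (11%) higher and 3304 (18.1%) lower. Of the genes that fell after conditioning 2033 also fell after context, which is 83.3% of the conditioning calls and 84.1% of the context calls. Of those that rose 763 also rose, which is 56.3% and 63.8%. Genes that fell had a median log2 fold change of −0.52 after conditioning and −0.50 after context, and genes that rose 0.65 and 0.46. Of the 84 that rose over 4-fold after conditioning, 11 (13.1%) rose after context. Across 10231 genes over 3 log2 CPM the 2 sets of fold changes correlated at r = 0.88, and at 0.745 across all tested genes, which are not independent replicates. Every one of the 30 leading genes was called in both. The difference between the effects was called for 0 genes (0%) by edgeR, with 390 at an unadjusted p under 0.05 and 1 by DESeq2. That gene was 5830444B04Rik, a clone-named transcript at under 1 CPM, named after its value was seen. The median standard error of this difference was 0.192, so small differences were not detectable with 4 mice a group.

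**Figure D5:**
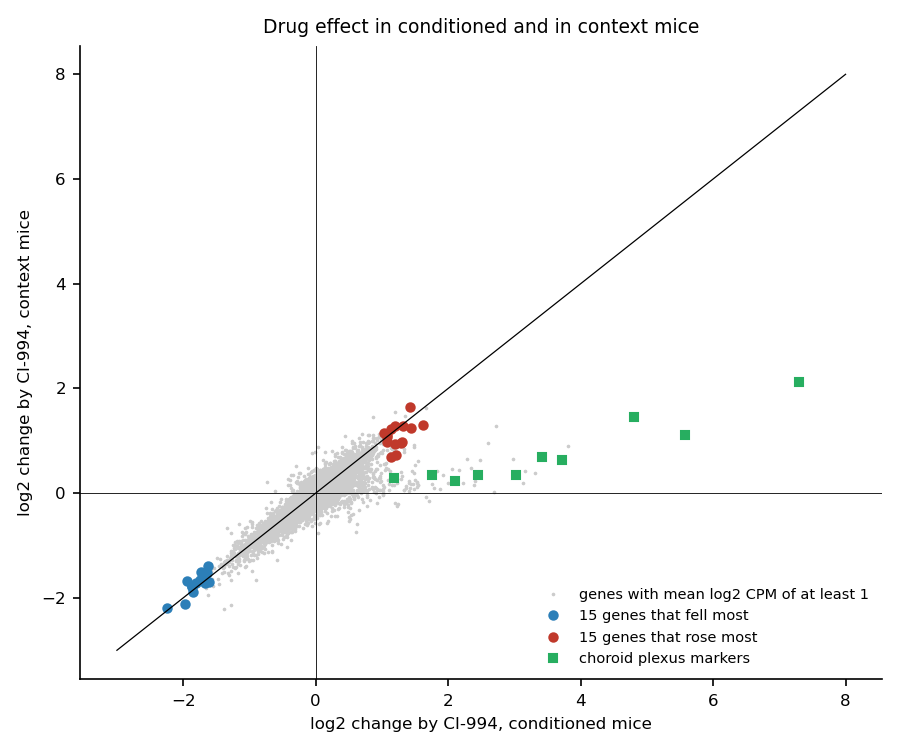
Log2 fold change of CI-994 over vehicle after conditioning (x axis) against that after context (y axis) in hippocampus, for genes with a mean log2 CPM of at least 1, with the line of equal change. The 15 genes that fell furthest (blue) lie near the line, and choroid plexus markers (squares) lie right of it.

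In striatum after conditioning 4416 of 18256 genes (24.2%) were called, 1748 (9.57%) higher and 2668 (14.6%) lower. Of the genes that fell in hippocampus 1815 fell there, 74.3% of the hippocampal calls and 68% of the striatal ones, and of those that rose 681 did, 50.3% and 39%. The labels do not say whether both regions came from the same mice, and both comparisons used the same treatments. Jun was an activity gene called in hippocampus (log2 fold change 0.85) and near 0 in striatum (−0.02, adjusted p = 0.944). Kcnk1 was higher by 0.76 in hippocampus and 0.23 in striatum, and Arntl by 0.76 and 0.85. Zfp genes had 216 lower and 14 higher in striatum, and DNA repair genes 25 lower and 1 higher. Differences between the regions were not tested for these genes.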

How the data were processed

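Whole-number read counts per Ensembl gene were used as deposited for 16 hippocampus and, for the comparison of regions, 16 striatum libraries. Per the submitters' processing notes, the tools named are bcl2fastq 2.20.0, STAR 2.6 and DESeq2, and the build is mm10. How reads were counted, and whether by strand, was not stated in the notes or labels, so overlapping genes on opposite strands may share reads. The 16 hippocampus libraries held 26026024 to 36670767 counts. Gene names came from GENCODE M21, and at most 0.0264% of a library's counts lay in unmatched identifiers.

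From these counts edgeR 4.0.16 (R 4.3.3) fitted 4 group means to the 16 hippocampus libraries after filterByExpr and TMM scaling, and the quasi-likelihood test gave p-values adjusted by Benjamini-Hochberg over 18261 genes. A gene was called at an adjusted p under 0.05. Every adjusted p in the text comes from that test unless DESeq2 1.42.0 is named. CPM values are counts over library totals without TMM scaling, while fold changes are TMM-scaled. The steps were tested on simulated data. No replicate pair agreed within sampling noise (chi-square per degree of freedom 5.77 to 51.0). Deviations of same-numbered drug and vehicle libraries from their group means correlated at 0.657, 0.464, 0.666 and 0.497 after context. Vehicle replicate 2 correlated more with drug replicate 1 (0.513), and vehicle replicate 4 with drug replicate 3 (0.678). The replicate numbers thus relate the context groups without settling pairs, and the main fit has no term for them. After conditioning 1 of 4 pairs fell under 0.1, and these groups were not taken as paired.

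The members and the 70 gene lists were chosen with earlier results of these data known. Genes are named by 3 rules. The first takes the 15 most risen and 15 most fallen genes whose log2 CPM averaged 1 or more, called with and without drug replicates 2 and 4 and with no overlap between groups. The second takes up to 4 called members of each list with the smallest adjusted p. The third takes 12 genes whatever their values, namely class I HDACs, activity genes and Ttr. Promoters are RefSeq windows (GRCm38.p6). Alternatives were other scalings, filters, designs, DESeq2, the replicate block, the sets of replicates and leaving out libraries.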

Additional observations from a re-analysis of the deposited data

Results flagged for a closer look

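The 126 groups of 4 libraries examined covered the 30 leading genes and the 12 genes named whatever their values. They also covered the autophagy and lysosome genes named by the second rule and the summed cell type markers. Other named genes were not examined. Each group was checked for a library whose gap to its nearest neighbour, as a share of the range, passed Dixon's 95% critical value. Chance gives about 1 in 20 such groups, and 2 were found. Mad2l1bp in the drug group had a ratio of 0.899, with replicate 3 lowest at 1.05 CPM and the others at 1.45 to 1.49 CPM. Zfp791 in the vehicle group had a ratio of 0.869, with replicate 1 lowest at 6.09 CPM and the others at 7.19 to 7.35 CPM. Both genes were called in every fit that left out 1 library, but both are leading genes chosen for their calls.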

How the results depend on the processing

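The count of genes called after conditioning was 3797, and it was 1642 with replicates 1 and 2 alone, 1555 with replicates 3 and 4 alone, and 2358 without drug replicates 2 and 4. These fits use fewer samples. After context the count of 3612 became 1497 and 1625 in the same sets of replicates, and 5680 with GC content and length offsets, where the cause was not tested. In striatum 4416 became 1401 and 2329 in the sets. The difference of the drug effects was called for 0 genes by edgeR and for 1 by DESeq2's Wald test. Leaving out 1 library at a time gave 2969 to 3957 after conditioning, 2899 to 3812 after context, 3646 to 4707 in striatum, and 0 to 1 for the difference, with the 1 found without replicate 3 of the context vehicle group. Without drug replicates 2 and 4, Igf2 (−0.44), Sema3b (−0.33) and Ttr (−1.04) changed sign. Of the 221 named genes 171 kept direction and side of the threshold in that fit, 46 no longer passed and 1 newly passed. Of the 30 leading genes, 30 were called in every fit without 1 library, and 29 in all 27 settings, with Chrna1 lost in 1. These genes were chosen for large changes called with and without drug replicates 2 and 4, so this was largely fixed in advance. Other counts after conditioning were 3754 with DESeq2's size factors, 4052 with DESeq2, 3368 with no filter on low counts, 3134 with the 2 groups alone, 4260 with library size alone, 5534 with GC content and length offsets and 5155 with a term for the sets of replicates.

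Same-numbered drug and vehicle libraries had deviations that correlated at 0.304, 0.195, 0.42 and −0.036 after conditioning. Of the 4 pairs 3 were over 0.1, short of every pair, so the conditioning groups were not taken as paired, although libraries shared structure by number. Not every library correlated best with its own number, since drug replicate 4 did so with vehicle replicate 2 (0.26). With the replicate block, the counts were 5419 after conditioning (2139 higher, from 1355, and 3280 lower), 5304 after context (2000 higher, from 1196, and 3304 lower), 0 for the difference and 5367 in striatum.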
